A study of Equus caballus with 6 samples.

Results

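VIM (ENSECAG00000004216), ACTG1 (ENSECAG00000018600) and EEF1A1 (ENSECAG00000020363) were chosen by their high mean level over all 6 libraries, at which they ranked 1, 7 and 3 by normalized count. They are 3 of the 26992 entries measured. VIM encodes vimentin, the intermediate filament protein of mesenchymal cells, and ACTG1 encodes the cytoplasmic gamma actin that polymerizes into the microfilaments to which focal adhesions attach. EEF1A1 encodes the elongation factor that delivers aminoacyl-tRNA to the ribosome, and it also binds actin. In tendon fibroblasts, intermediate filaments resist large deformations of the cell, and actin filaments bear the tension between the cell and its matrix. Genes of this kind are often used as references for normalization because most cells express them at a high level.

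The cells were tenocytes of the superficial digital flexor tendon (SDFT) of 1 female horse that was 5 years old, used at passage 3. Both groups were nucleofected with a siRNA, a non-targeting scramble control or one against the mRNA of scleraxis (Scx), a transcription factor of the tendon lineage, and both were held on silicone-bottomed, collagen type I coated plates at 1% cyclic strain and 0.5 Hz for 2 h per day over 3 days. Each group had 3 libraries of polyA RNA, and since all cells came from 1 animal, the p-values measure the spread between repeats of the experiment and not between horses. The comparison asked which transcripts differ between tenocytes exposed to Scx siRNA and to the scramble control.

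The strands of the Scx siRNA are shown because they are the only difference in sequence between the treatments that the labels give. Each has 21 bases, written 5′ to 3′, and capitals mark the seed (bases 2 to 8) of the antisense strand.
Sense: agagaaaguugagcaaggatt
Antisense: uCCUUGCUcaacuuucucugg

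Between 6539504 and 12213421 reads were counted on genes per library. Scx had 5, 7 and 25 reads in scramble control replicates 1 to 3 and 5, 0 and 0 reads in Scx siRNA replicates 1 to 3. Its log2 fold change was −2.19 (SE 1.14, adjusted p = 0.192 from limma), so these few reads did not check the label of any single library. The study reports a GC bias that lowered the number of reads mapped to Scx mRNA. A count of 0 in Scx siRNA replicates 2 and 3 has an upper limit of 0.293 and 0.459 RPM (3 reads of the total), for counting error only. Of 13 fibroblast and tendon markers, VIM among them, 12 had a read in any library. Together they held 5.51 to 5.81% of the reads with scramble siRNA and 6.05 to 6.20% in Scx siRNA. Of the 11 tested, 3 were higher and 1 lower in Scx siRNA (adjusted p under 0.05 from limma). Over all genes tested, 12.9% were higher and 12.1% lower. The tendon genes KERA and THBS4 had only 0 to 12 and 4 to 30 reads per library. The tendon gene TNMD and the endothelial marker SELE had 0 reads in every library. SELE was the only marker of another cell type that was looked at, and the study also lists it as tendon-selective in rat. One library stood apart. Scx siRNA replicate 2 differed from replicates 1 and 3 by a chi-square per degree of freedom of 121 and 128 over genes, against 26.4 between replicates 1 and 3 and 7.69 to 15.3 among the scramble control libraries. Fold changes and ratios below are therefore given with and without it. The library was picked out from these same data, and leaving it out removes spread in genes where it lies apart. The p-values without it are thus descriptive. The likeness values and the SDs over all genes use all 6 libraries.

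In tenocytes exposed to Scx siRNA the level, as a fold taken back from the mean log2 values, was 1.39-fold that of the scramble control for VIM, 1.44-fold for ACTG1 and 1.20-fold for EEF1A1. None of the 3 differences passed the test, and the 3 genes did not vary together. VIM was above every scramble control library in each Scx siRNA library and highest in replicate 2. ACTG1 and EEF1A1 were above every scramble control library in replicates 1 and 3 and below every one in replicate 2.

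VIM had 87258, 81820.2 and 83966 normalized counts (reads divided by the size factor of the library) in scramble control replicates 1 to 3. In Scx siRNA replicates 1 to 3 it had 104204, 151594 and 102402. The scramble control libraries lay close together, Scx siRNA replicates 1 and 3 lay close together above them, and replicate 2 lay far above both. The means were 84348 ± 2739 (SD, n = 3) and 119400 ± 27895 (SD, n = 3). The log2 fold change, Scx siRNA against scramble control on log2(normalized count + 1), was 0.48 (SE 0.26, 95% interval −0.13 to 1.08, adjusted p = 0.208 from limma, adjusted by Benjamini-Hochberg over 11517 genes). The groups of VIM did not overlap, as in 22.3% of the genes tested in this direction, and a two-sided exact permutation test on normalized counts gave p = 0.1, the smallest that 3 libraries against 3 allow. Without Scx siRNA replicate 2 it was 0.29 (adjusted p = 0.204 from limma). As a share of all reads on genes, a scale without size factors, VIM took 1.09, 1.03 and 1.08% with scramble siRNA and 1.08, 1.48 and 1.13% in Scx siRNA. On that scale Scx siRNA replicate 1 fell among the scramble control libraries, so the separation of VIM depended on the scaling (exact permutation p = 0.2).

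ACTG1 had 58378, 48560.5 and 53295 normalized counts in scramble control replicates 1 to 3. In Scx siRNA replicates 1 to 3 it had 101340.2, 43982 and 101410.1. Replicates 1 and 3 were nearly equal and both 1.90-fold the scramble control mean, whereas replicate 2 was at 0.823 of that mean. The means were 53411 ± 4910 (SD, n = 3) and 82244 ± 33136 (SD, n = 3). The log2 fold change of ACTG1 was 0.53 (SE 0.36, 95% interval −0.32 to 1.38, adjusted p = 0.309 from limma), and the exact permutation test gave p = 0.4. Without Scx siRNA replicate 2 it was 0.93 (adjusted p = 0.00619 from limma), where 19.9% of the 11539 genes in that fit were called higher. By share of reads ACTG1 stood at 0.732, 0.612 and 0.682% with scramble siRNA and at 1.05, 0.430 and 1.12% in Scx siRNA. The order of the libraries around the scramble control was thus the same without size factors (exact permutation p = 0.4).

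EEF1A1 had 58721, 72785 and 79395 normalized counts in scramble control replicates 1 to 3. In Scx siRNA replicates 1 to 3 it had 124202, 44183 and 105909. The scramble control libraries already differed by 1.35-fold, the widest range of the 3 genes, and Scx siRNA replicates 1 and 3 stood at 1.77-fold and 1.51-fold their mean with replicate 2 at 0.628 of it. The means were 70300.3 ± 10558 (SD, n = 3) and 91431 ± 41928 (SD, n = 3). The log2 fold change of EEF1A1 was 0.26 (SE 0.41, 95% interval −0.70 to 1.22, adjusted p = 0.661 from limma), and the exact permutation test gave p = 0.5. Without Scx siRNA replicate 2 it was 0.72 (adjusted p = 0.0310 from limma), and without replicate 1 it was −0.03. In the fit without replicate 2, 19.9% of the genes were called higher. The shares of reads were 0.736, 0.917 and 1.02% with scramble siRNA and 1.29, 0.432 and 1.17% in Scx siRNA (exact permutation p = 0.9). Again replicate 2 was below, and replicates 1 and 3 above, every scramble control library.

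**Figure D1:**
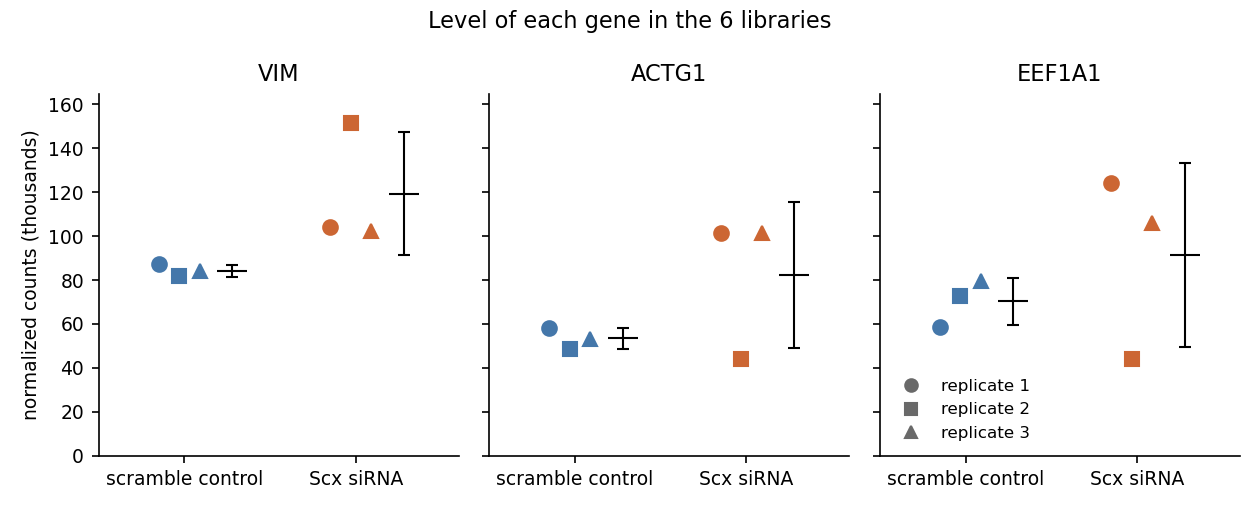
Normalized counts of VIM, ACTG1 and EEF1A1 in each library, with points for replicates 1 to 3 and bars for the mean ± SD of each group (n = 3). Scx siRNA replicate 2 is the highest of the 6 libraries for VIM, at 151594, and the lowest for ACTG1 and EEF1A1, at 43982 and 44183.

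Of the 11517 genes in the fit, 25.0% passed at an adjusted p of 0.05 from limma, 12.9% with the higher level in Scx siRNA and 12.1% with the lower, and the 3 genes were not among them. Of all calls 51.6% were higher, and 31.4% when libraries were scaled to total reads. The median log2 fold change was −0.20 over all genes tested and 0.38 over the 1943 genes whose mean reached 1000 normalized counts, and the values of VIM and ACTG1 lay just above the latter and that of EEF1A1 just below. Of the 25 most highly expressed genes 7 were called higher and 2 lower, with a median log2 fold change of 0.36, where 38.8% of the genes whose mean reached 1000 were called in either direction. The pattern of ACTG1 and EEF1A1, with replicate 2 below and replicates 1 and 3 above all scramble control libraries, was seen in 5.49% of the genes tested and in 3 of the 25, the other being CLU (clusterin, a secreted chaperone). The opposite pattern, with replicate 2 above and replicates 1 and 3 below, was seen in 6.28% of the genes tested and in 2 of the 25. In bulk RNA, fewer cells of a type and less RNA per cell cannot be told apart. ACTG1 and EEF1A1 have close relatives and processed copies in mammalian genomes, and how reads that match several of them were counted is not given in the sources used here, so their levels are uncertain to that extent.

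With 44130 to 152102 reads on each gene per library, counting error came to 0.256 to 0.476% of a value. Scx siRNA replicates 1 and 3 of ACTG1 differed by less than that, and the ranges within each group were wider than that for all 3 genes. The coefficient of variation between replicates was 3.25% with scramble siRNA and 23.4% in Scx siRNA for VIM, 9.19% and 40.3% for ACTG1, and 15.0% and 45.9% for EEF1A1. The highest library was 1.07-fold the lowest with scramble siRNA and 1.48-fold in Scx siRNA for VIM, 1.20-fold and 2.31-fold for ACTG1, and 1.35-fold and 2.81-fold for EEF1A1.

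On the log2 scale the SD between replicates was 0.0467 with scramble siRNA and 0.320 in Scx siRNA for VIM. It was 0.133 and 0.696 for ACTG1, and 0.224 and 0.803 for EEF1A1. A larger spread in Scx siRNA was common to most genes, since 91.2% of those tested and 20 of the 25 most highly expressed had the larger SD there. The median SD was 0.164 with scramble siRNA and 0.591 in Scx siRNA over all genes tested, and 0.117 and 0.382 over genes whose mean reached 1000. Against the latter, VIM varied less than the middle gene in both groups, and ACTG1 and EEF1A1 more in both. Among the 25, the SD in Scx siRNA ranked EEF1A1 4, ACTG1 5 and VIM 11 from the largest. At the ends of this order stood CLU with 1.20 and DCN (decorin, a small proteoglycan that binds collagen fibrils) with 0.0207.

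Replicate 2 was the farthest of the 3 Scx siRNA libraries from the others for each gene, and leaving it out lowers the SD by construction. Between Scx siRNA replicates 1 and 3 alone the SD was 0.0178 for VIM, 0.000703 for ACTG1 and 0.163 for EEF1A1. The SD of EEF1A1 also depended on 1 library with scramble siRNA, where it was 0.0887 without replicate 1. Replicate 2 lay 0.55 above the mean of the other 2 on the log2 scale for VIM, 1.47-fold. It differed by −1.20 for ACTG1 and −1.38 for EEF1A1, to 0.434 and 0.384 of their mean. Departures at least this large were seen in 62.2%, 31.5% and 26.3% of all genes tested, and in 51.4%, 12.9% and 8.08% of genes whose mean reached 1000. Of the 25 most highly expressed genes, 18 had replicate 2 outside replicates 1 and 3 by more than those 2 differed from each other, as did 51.1% of the genes tested. It was the lowest of the 3 in 7 of these and the highest in 11. The part of the library itself in the results for the 3 genes was not tested beyond leaving it out.

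**Figure D2:**
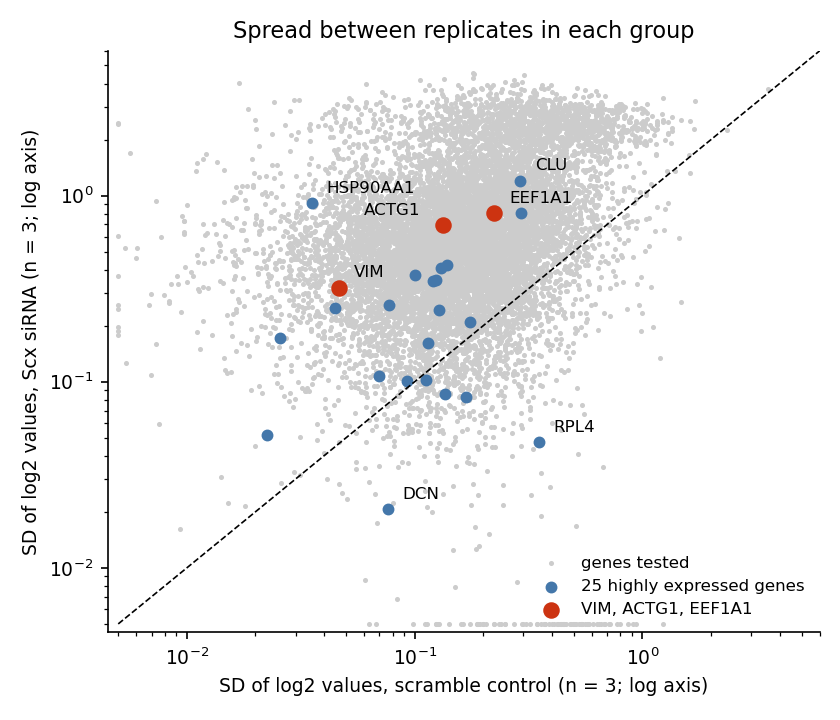
SD of log2(normalized count + 1) over the 3 replicates of the scramble control (horizontal, log axis) and of Scx siRNA (vertical, log axis), with grey points for genes tested, blue for the 25 most highly expressed genes and red for VIM, ACTG1 and EEF1A1. SDs too small for the axes are drawn at the edge. The 3 genes lie above the line of equal spread, as do 91.2% of the genes tested.

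The ratio of a pair of genes within a library does not depend on how that library was scaled, and gene length cancels when ratios are compared between libraries. The log2 ratio of VIM to ACTG1 was 0.58, 0.75 and 0.66 in scramble control replicates 1 to 3. In Scx siRNA replicates 1 to 3 it was 0.04, 1.79 and 0.01. The scramble control lay between the extremes of Scx siRNA, and the group means were close, at 0.66 ± 0.0866 and 0.61 ± 1.02 (SD, n = 3; exact permutation p = 1). Without replicate 2 the log2 ratio in Scx siRNA differed by −0.64 from the scramble control, with an exact permutation p = 0.1, the smallest that 3 against 2 allow.

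VIM to EEF1A1 behaved similarly. Its log2 ratio was 0.57, 0.17 and 0.08 with scramble siRNA and −0.25, 1.78 and −0.05 in Scx siRNA, with means of 0.27 ± 0.26 and 0.49 ± 1.12 (SD, n = 3; exact permutation p = 1). Replicates 1 and 3 were below, and replicate 2 above, all scramble control libraries, and without replicate 2 the difference was −0.42 (exact permutation p = 0.2).

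The ratio of ACTG1 to EEF1A1 was steadier across Scx siRNA. It was −0.01, −0.58 and −0.58 with scramble siRNA and −0.29, −0.01 and −0.06 in Scx siRNA, on the log2 scale. Here replicate 2 lay beside replicate 3, and the groups overlapped through scramble control replicate 1. The means were −0.39 ± 0.33 and −0.12 ± 0.15 (SD, n = 3), a difference of 0.27 with an exact permutation p = 0.3, and of 0.21 without replicate 2 (exact permutation p = 0.6). With adjustment over the 3 pairs the p-values from the exact permutation tests were 1, 1 and 0.9.

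**Figure D3:**
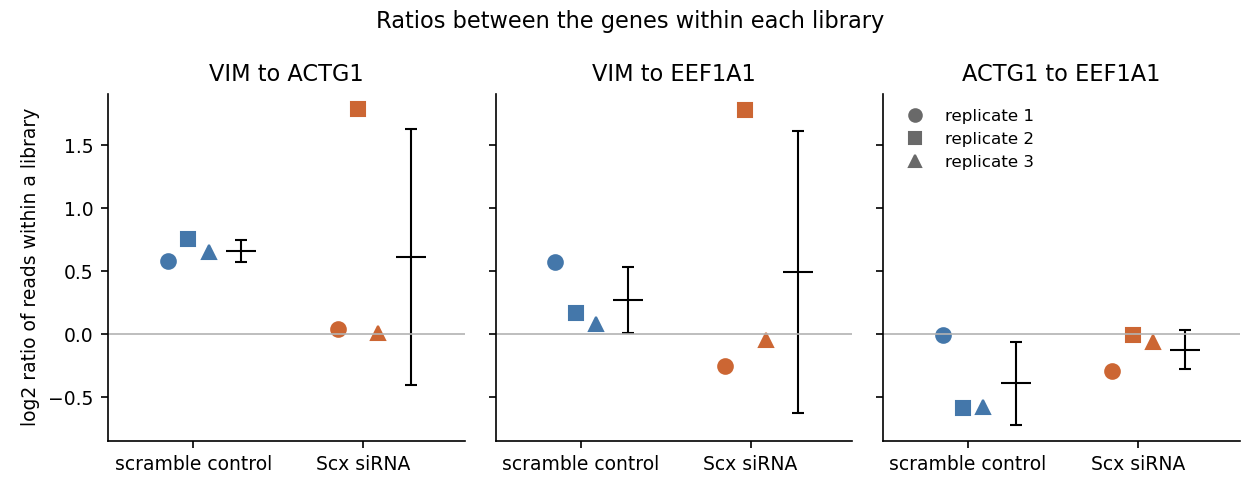
Log2 ratio of normalized counts within each library for VIM to ACTG1, VIM to EEF1A1 and ACTG1 to EEF1A1, with points for replicates 1 to 3 and bars for the mean ± SD of each group (n = 3). Scx siRNA replicate 2 has ratios of 1.79 and 1.78 for the pairs with VIM and of −0.01 for ACTG1 to EEF1A1, where it lies beside replicate 3.

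Among genes that the study's tables pair with a symbol, 68 whose mean reached 100 were ordered by how closely their log2 values followed each of the 3 genes over the 6 libraries (root mean square difference after centring each gene on its mean). These values are a description, since all points share the same libraries and replicate 2 weighs strongly in them. The genes most like VIM were CLTC (clathrin heavy chain, which coats endocytic vesicles) at 0.0837, CTNNB1 (beta-catenin, which links cadherins to actin and acts in Wnt signalling) at 0.102 and PDE8A (a cAMP phosphodiesterase) at 0.126, where the median of the 68 was 0.684. For EEF1A1 they were FBLN1 (fibulin 1, a matrix glycoprotein) at 0.196, CLU at 0.274 and HTRA1 (a secreted serine protease) at 0.296. For ACTG1 they were FBLN1 at 0.334, COMMD7 at 0.369 and CLU at 0.400. ACTG1 and EEF1A1 were closer to each other, at 0.249, than either was to VIM, at 0.589 and 0.672.

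The study's tables pair 3 further genes of the translation list with an identifier, of which EIF4G2 and RPL4 act in translation and TPT1 is itself controlled at that step. EIF4G2, a translation initiation factor, rose from 16959, 13957 and 13588.5 normalized counts to 35252, 42077 and 31548.5, a log2 fold change of 1.29 (SE 0.20, adjusted p = 0.00669 from limma). TPT1, the translationally controlled tumour protein, rose from 20723, 24168 and 23101 to 44049.5, 44055 and 36317, a log2 fold change of 0.87 (SE 0.20, adjusted p = 0.0196 from limma). For both genes replicate 2 was on the same side of the scramble control as the other Scx siRNA libraries, unlike for EEF1A1, and without it the log2 fold changes were 1.18 and 0.82 (adjusted p = 0.00192 and 0.00744 from limma).

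RPL4, a protein of the large ribosomal subunit, had 28697, 22347 and 17656 normalized counts with scramble siRNA and 34584.5, 32649.5 and 34539 in Scx siRNA (log2 fold change 0.59, SE 0.23, adjusted p = 0.0983 from limma). Its Scx siRNA libraries were the closest together of the 4 translation genes, with an SD of 0.0474, and without replicate 2 it differed by 0.62 on the log2 scale (adjusted p = 0.0574 from limma). With EEF1A1 included, 2 of the 4 were called higher (EIF4G2 and TPT1) and 0 lower, beside 12.9% and 12.1% of all genes tested. Their median log2 fold change was 0.73, beside −0.20 over all genes tested and 0.38 over genes whose mean reached 1000. All 4 belong to the 25 most highly expressed genes, of which 7 were called higher and 2 lower. A difference of the list from other genes of like level was not tested. The list held 1.57 to 1.71% of the reads with scramble siRNA and 1.59 to 2.47% in Scx siRNA.

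Beside VIM and ACTG1, 6 genes of the cytoskeleton and of its links to membrane and junctions were paired with an identifier. ANXA1, annexin 1, which binds membranes and actin, rose from 17591, 17871 and 15075 normalized counts to 39810, 42261 and 37542, a log2 fold change of 1.25 (SE 0.18, adjusted p = 0.00545 from limma). AHNAK, a very large scaffold protein under the plasma membrane, fell from 45832, 47516 and 40003 to 19358, 27925 and 16028, a log2 fold change of −1.11 (SE 0.25, adjusted p = 0.0205 from limma). EZR, ezrin, which tethers actin to the membrane, fell from 1286, 1279.96 and 1576 to 570.1, 798 and 992, a log2 fold change of −0.84 (SE 0.24, adjusted p = 0.0393 from limma). In these 3 genes no Scx siRNA library overlapped the scramble control. The same held for VIM, CTNNB1 and FNBP1, which were not called, but not for ACTG1 and SEPT4. Such a separation was common, with 22.3% of the genes tested separated in the direction of ANXA1. Of the 25 most highly expressed genes, 10 were separated in that direction and 4 in the lower direction, AHNAK among them. EZR, at rank 1794 by mean, is not 1 of the 25. The share in the lower direction over all genes tested is not given here. Without replicate 2 the log2 fold changes of ANXA1, AHNAK and EZR were 1.20, −1.33 and −0.87 (adjusted p = 0.00141, 0.00149 and 0.0273 from limma).

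CTNNB1 had 18388, 15513 and 16527.5 normalized counts with scramble siRNA and 24289.7, 32058.5 and 19718 in Scx siRNA, highest in replicate 2 like VIM (log2 fold change 0.57, adjusted p = 0.110 from limma), and without that library it differed by 0.38 on the log2 scale (adjusted p = 0.0883 from limma). FNBP1, a formin-binding protein that bends membranes, had 470.1, 448 and 441 with scramble siRNA and 351, 349 and 251 in Scx siRNA (log2 fold change −0.53, adjusted p = 0.108 from limma). FNBP1 was called lower without replicate 2, at −0.61 (adjusted p = 0.0345 from limma), as were 22.5% of genes in that fit, and with scaling to total reads, at −0.81 (adjusted p = 0.0219 from limma). SEPT4, a septin, had 5, 7 and 22 reads with scramble siRNA and 0, 10 and 0 in Scx siRNA (log2 fold change −1.93, SE 1.22, adjusted p = 0.272 from limma), too few for its level to be compared, and it was not tested without replicate 2. Over the 8 genes 1 was called higher and 2 lower, beside 12.9% and 12.1% of all genes tested, and the median log2 fold change was −0.03 beside −0.20. The list held 2.69 to 2.87% of the reads with scramble siRNA and 2.92 to 3.08% in Scx siRNA.

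**Figure D4:**
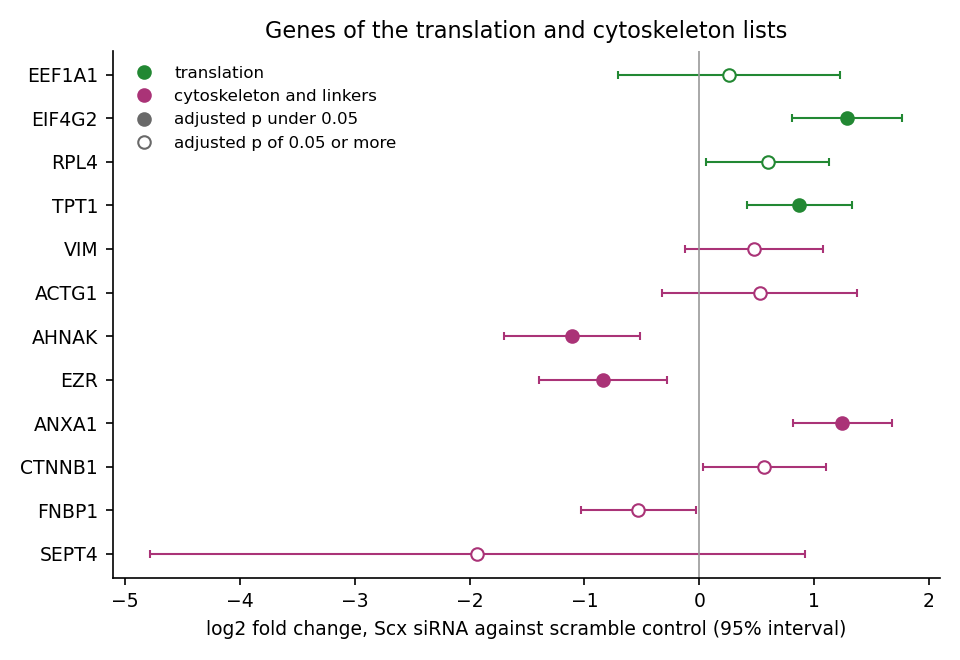
Log2 fold change of Scx siRNA against scramble control (horizontal, with 95% intervals from limma, n = 3 per group) for the 4 translation genes in green and the 8 genes of the cytoskeleton and its links in purple, filled where the adjusted p was under 0.05. EIF4G2, TPT1 and ANXA1 are filled on the higher side and AHNAK and EZR on the lower, and the intervals of VIM, ACTG1 and EEF1A1 cross 0.

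**Figure D5:**
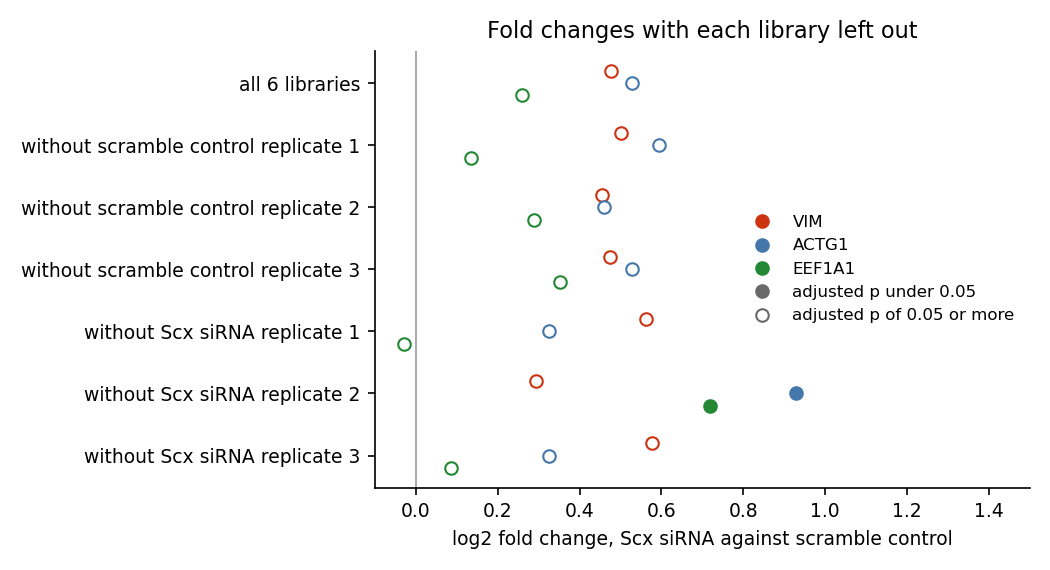
Log2 fold change of VIM, ACTG1 and EEF1A1 with all 6 libraries and after the removal of each single library, filled where the adjusted p from limma was under 0.05. Without Scx siRNA replicate 2 the value is 0.29 for VIM, 0.93 for ACTG1 and 0.72 for EEF1A1, against 0.48, 0.53 and 0.26 with all libraries. That library was picked out from these same data, so the points filled without it are descriptive.

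Leaving out libraries 1 at a time moved EEF1A1 most, from −0.03 without Scx siRNA replicate 1 to 0.72 without replicate 2. ACTG1 ranged from 0.33 without Scx siRNA replicate 3 to 0.93 without replicate 2, and VIM from 0.29 without replicate 2 to 0.58 without replicate 3. Every fit that left out a scramble control library gave a positive log2 fold change for all 3 genes. By rank of read count within a library, where longer transcripts collect more reads, VIM was 1 in each scramble control library and 4, 1 and 3 in Scx siRNA replicates 1 to 3. ACTG1 was at ranks 7, 10 and 8 with scramble siRNA and 5, 12 and 4 in Scx siRNA. EEF1A1 was at ranks 5, 3 and 3 and then at 2, 10 and 2. The 3 genes together held 2.35 to 3.43% of a library's reads.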

How the data were processed

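RNA of 3 scramble control and 3 Scx siRNA libraries was sequenced. The authors used HISAT2 2.0.3 on EquCab2, counted reads on Ensembl genes with HTSeq, and deposited normalized counts, a signal in which each library's reads are divided by its DESeq2 1.12.4 size factor. The reads recovered from these values were whole for 100% (tolerance 0.01). The deposited columns of fold changes and p-values were not used. The main test was limma 3.58.1 in R 4.3.3 on log2(normalized count + 1) of genes whose mean reached 5 (trend, two-sided, no covariate, Benjamini-Hochberg). Ratios and single values were compared by two-sided exact permutation tests. The models, with edgeR 4.0.16 and DESeq2 1.42.0 as alternatives, were run on simulated data with equal and with unequal spread between groups. The outcome of these runs is not given here. The main fit takes 1 variance per gene for both groups, although most genes had the larger SD in Scx siRNA.

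The genes and lists were chosen with earlier results of these data known. Named were the 3 genes, the translation and cytoskeleton lists, Scx, the 3 genes most like each, and the 25 highest genes' extremes of SD in Scx siRNA. Genes beyond this rule that the text names are the markers KERA, THBS4, TNMD and SELE. The reference gene table (assembly TB-T2T) matched 1 identifier, so coordinates and transcript length were not analysed here.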

Additional observations from a re-analysis of the deposited data

How the results depend on the processing

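The settings tried were a pseudocount of 0.5 or 8, every gene above 0, a mean of at least 50, TMM, total reads, quantile normalization, edgeR, DESeq2, a replicate block, each library left out and, chosen after seeing the data, group weights. The adjusted p lay at 0.0681 to 0.546 for VIM, 0.00619 to 0.665 for ACTG1 and 0.0310 to 0.970 for EEF1A1, and passed only without Scx siRNA replicate 2, for ACTG1 and EEF1A1. Without each library in turn log2 fold changes were 0.29 to 0.58 for VIM, 0.33 to 0.93 for ACTG1 and −0.028 to 0.72 for EEF1A1. For Scx, not tested without scramble control replicate 3, they were −3.14 to −1.72. Scx passed without Scx siRNA replicate 1 (adjusted p = 0.0464 from limma). Scaling to total reads, which moved the median of all genes by −0.29, gave 0.19 for VIM, 0.24 for ACTG1 and −0.024 for EEF1A1. Quantile normalization, which moved it by 0.19, gave −0.22 for VIM, 0.19 for ACTG1 and −0.059 for EEF1A1. For SEPT4 and Scx it gave 0.43 and −0.019 (Scx adjusted p = 0.992 from limma). That method sets a value by a gene's rank within its library. VIM ranked 1 in each scramble control library, so its SD there became 0. The cause of these shifts was not tested.

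Genes called higher and lower numbered 1487 and 1395, 959 and 2095 with total reads, and 380 to 2294 and 137 to 2595 with a library left out, the most without Scx siRNA replicate 2 and the fewest without scramble control replicate 2. Of the translation genes 1 was called higher with every gene above 0 or group weights, and 0 to 3 with a library left out. Of the cytoskeleton genes 2 were called higher with DESeq2 and 1 to 2 with a library left out, and 1 was called lower with group weights and 0 to 3 with a library left out. ANXA1 was called in each of the 17 alternatives, EIF4G2 in 15, AHNAK in 13, EZR in 12 and TPT1 in 11. With group weights, which allow for unequal spread, TPT1 and EZR were not called (adjusted p = 0.0579 and 0.0504 from limma). Calls were gained for RPL4 with DESeq2 (adjusted p = 0.0442), for CTNNB1 with DESeq2 and without Scx siRNA replicate 3 (0.0410 and 0.0441), and for FNBP1 with total reads and without Scx siRNA replicate 2. The log2 ratio of VIM to ACTG1 differed by −0.64 to 0.25 with a library left out (0.24 without Scx siRNA replicate 1), VIM to EEF1A1 by −0.42 to 0.59 and ACTG1 to EEF1A1 by 0.17 to 0.46.

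The study repeated the experiment 3 times, and the labels number replicates in both groups without saying that a number marks a repeat. Deviations of same-numbered libraries correlated at −0.0789, 0.0153 and 0.169, and those of differently numbered ones at −0.229 to 0.207. With 3 libraries per group these values cannot exclude pairing. The main fit and the permutation tests took the libraries as unpaired. With the replicate block the log2 fold changes of VIM, ACTG1 and EEF1A1 were 0.48, 0.53 and 0.26 (adjusted p = 0.270, 0.251 and 0.640 from limma).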
